A study of Homo sapiens with 6 samples.

Results

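The integrated stress response and the unfolded protein response were examined through 41 genes, chosen by symbol, out of 20169 genes in the count table. Polyadenylated RNA was sequenced from HEK293T, an embryonic kidney cell line that expresses a viral large T antigen, grown in DMEM with serum. Both groups of cells carried a landing pad, a genomic docking site for reporter genes, in a line with the CAG promoter (3 libraries) or a line with the PGK promoter (3 libraries). CAG is a strong composite promoter with viral enhancer and actin promoter parts, and PGK is the promoter of a glycolytic gene. Per the series' design the lines were monoclonal. Promoter and clone therefore cannot be told apart in any value given here. Nothing in the labels ties the libraries to separate cultures, and a p-value here reflects only how far these libraries spread, which may be technical. The libraries held 22450538 to 23442542 counts in the CAG line and 21896246 to 22889708 counts in the PGK line. Levels are in CPM, counts relative to the TMM-scaled library size, and a change is the log2 fold change of CAG over PGK with its standard error (SE).

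Both responses adjust a cell to stress. In the integrated stress response, kinases that sense stress phosphorylate the translation factor eIF2, which lowers protein synthesis at large but raises translation of the transcription factor ATF4. ATF4 then switches on genes of amino acid supply and of feedback control. In the unfolded protein response, the sensors PERK, IRE1 and ATF6 in the membrane of the endoplasmic reticulum (ER) raise the chaperones that fold proteins there and the machinery of ER-associated degradation (ERAD). The activation of ATF4 by translation, of XBP1 by splicing and of ATF6 by cleavage are steps that a count of reads per gene does not show.

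Most stress response genes were slightly higher in the CAG line. Of the 41 genes, 40 passed the filter on low counts and NUPR1 did not. In edgeR's quasi-likelihood test, with p-values adjusted by Benjamini-Hochberg over 13103 genes and called under 0.05, 24 of the 40 were higher and 6 lower in CAG, 30 calls in all. Among all tested genes 31.6% were called higher and 30.4% lower, 62.0% in all. The median log2 change was 0.19 for the stress genes and -0.0021 for all tested genes. The changes were small, since 26 of the 30 called members differed by less than 1.5-fold. The other 4, all higher, were CEBPG at 1.79-fold, MANF at 1.69-fold, DNAJC3 at 1.62-fold and ASNS at 1.61-fold. A called rise of 1.5-fold or more was found for 12.4% of all tested genes, and a called fall of that size for 7.94%. Tested against a fold of 1.5 with edgeR's glmTreat, 2 members, CEBPG and MANF, were higher, against 7.28% of all tested genes; 0 were lower, also at an unadjusted p under 0.05, against 4.26% of all genes by adjusted p. The 3 CAG libraries lay above the 3 PGK libraries for 24 members and below them for 6, against 33.5% and 32.0% of all tested genes. In bulk RNA a smaller share of cells expressing a gene and less RNA per cell cannot be told apart. The counts of 24 and 6 were the same with RLE size factors and with scaling by library size only. Of the 18 tested members with neither an exon overlap nor an annotated pseudogene copy, 12 were higher and 1 lower.

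**Figure D1:**
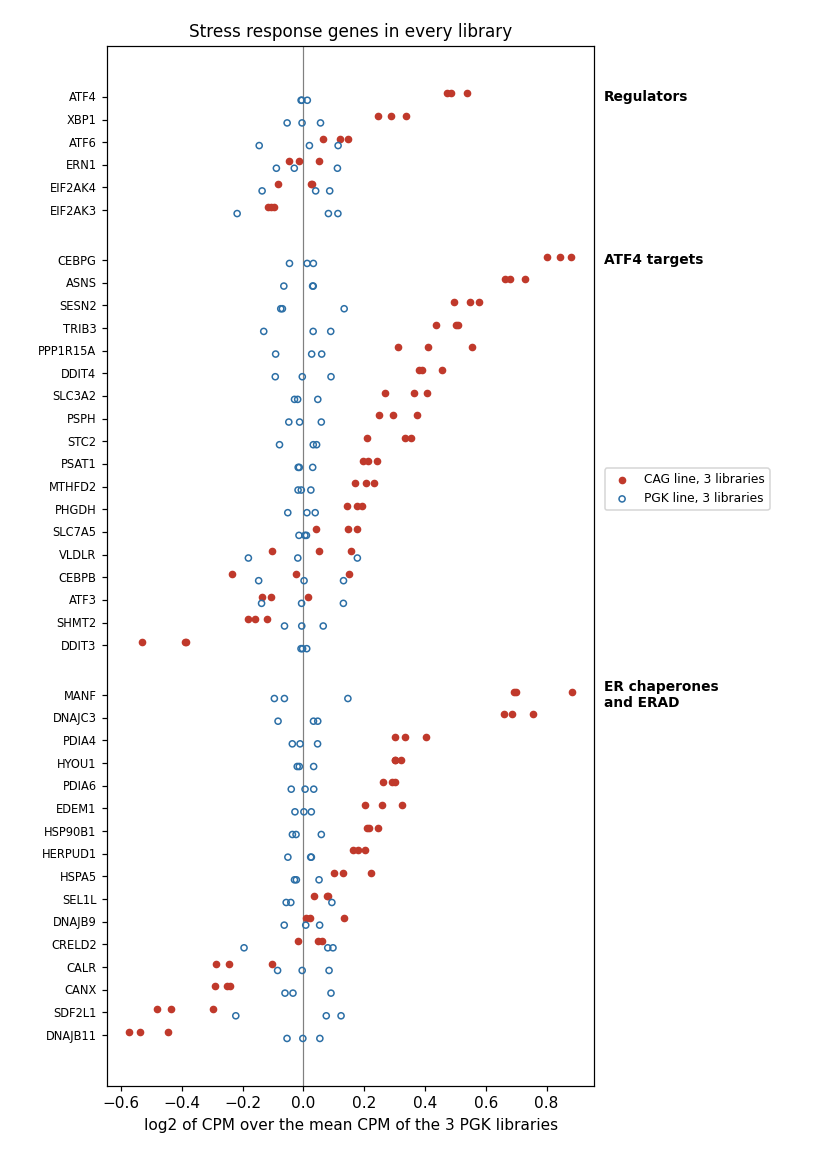
Each row is 1 of the 40 tested stress genes, and each point is 1 library, placed by the log2 of its CPM over the mean of the 3 PGK libraries (filled, CAG; open, PGK). All 3 CAG points lie to the right of the PGK points for 24 genes and to the left for 6, with overlap for the other 10.

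Among the regulators, ATF4 and XBP1 were higher in CAG, while the stress sensors did not pass the test. ATF4 (ENSG00000128272, chromosome 22), the central transcription factor of the integrated stress response, had 749, 716 and 722 CPM in the CAG libraries, against 521, 513 and 514 CPM in the PGK libraries. Every CAG library lay far above every PGK library. The log2 change was 0.50 (SE 0.044, 95% interval 0.41 to 0.59), a fold of 1.41, with an adjusted p of 1.51e-08 by edgeR. ATF4 has 4 annotated pseudogene copies, so how its reads were assigned is uncertain. XBP1 (ENSG00000100219, chromosome 22), the transcription factor activated by IRE1, had 127, 119 and 123 CPM in CAG and 104, 96.8 and 100.1 CPM in PGK. The groups did not overlap, and XBP1 rose by 0.29 (SE 0.050; edgeR adjusted p = 5.97e-05).

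None of the 4 sensors passed the test. EIF2AK3, which encodes PERK, had 19.87, 19.999 and 19.76 CPM in CAG, against 18.4, 23.1 and 22.7 CPM in PGK. PGK replicate 1 was the lowest of the 6 and the CAG libraries lay between it and the other PGK libraries. The log2 change of EIF2AK3 was -0.11 (95% interval -0.28 to 0.06; edgeR adjusted p = 0.264), and without PGK replicate 1 it was -0.21 with an adjusted p of 0.0189. EIF2AK4, which encodes the amino acid sensor GCN2, had 58.5, 63.3 and 63.1 CPM in CAG and 56.4, 63.8 and 65.9 CPM in PGK. ERN1, which encodes IRE1, had 16.9, 16.1 and 15.7 CPM in CAG and 15.9, 17.6 and 15.3 CPM in PGK. For both genes the libraries of the lines were interleaved. The 95% interval of the log2 change was -0.14 to 0.12 for EIF2AK4 and -0.16 to 0.16 for ERN1, so a change as large as that of ATF4 lies outside both. ATF6 had 77.5, 76.2 and 73.3 CPM in CAG, against 63.3, 75.8 and 71.0 CPM in PGK. The CAG libraries were mostly higher but overlapped PGK replicate 2. The log2 change of ATF6 was 0.11 (95% interval -0.02 to 0.24; edgeR adjusted p = 0.126), and it passed without PGK replicate 2, at 0.17 with an adjusted p of 0.0189.

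Per kilobase of transcript, which allows levels to be compared between genes, ATF4 stood far above the sensors. ATF4 averaged 361 ± 8.50 CPM per kb in CAG and 256 ± 1.98 in PGK (SD, n = 3 each). XBP1 averaged 66.4 ± 2.10 CPM per kb in CAG and 54.3 ± 2.07 in PGK. ERN1 had the lowest level of the 6 regulators, at 2.06 ± 0.0725 CPM per kb in CAG and 2.07 ± 0.150 in PGK.

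**Figure D2:**
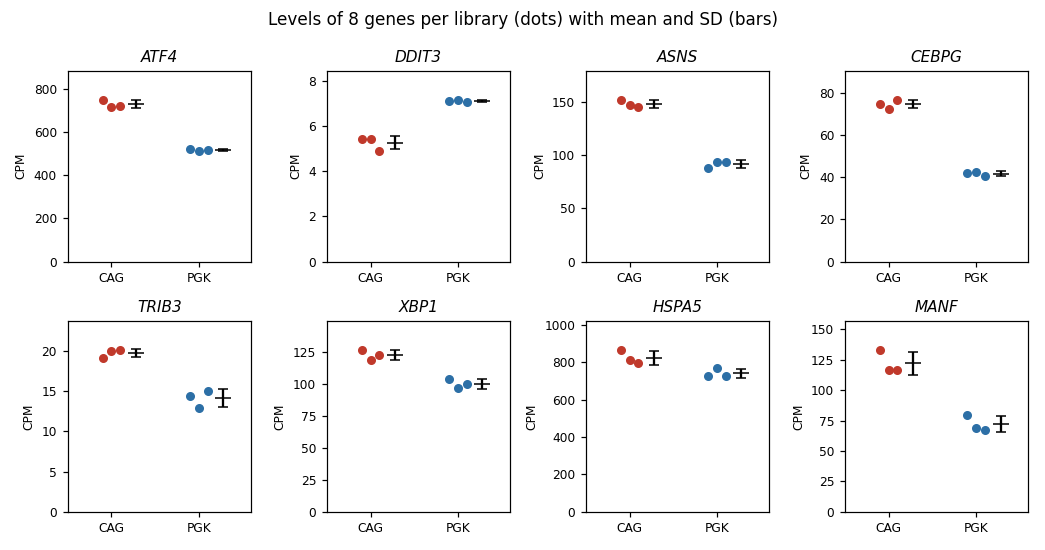
CPM of 8 stress genes in each library (dots) with the mean and SD of each line (black), CAG left of PGK, on axes that start at 0. DDIT3 is the 1 gene of the 8 that was lower in CAG, at 4.91 to 5.42 CPM against 7.05 to 7.15 CPM in PGK.

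The members that ATF4 is known to activate were mostly higher in CAG, unlike a further list of its targets given below (8 of 17 tested). Of the 18 tested members of the ATF4 target group, 13 were higher and 2 lower, against 31.6% and 30.4% of all tested genes. The members had a median log2 change of 0.26 and a range of -0.44 to 0.84. Their summed level was 2472 to 2595 CPM in the CAG libraries and 2175 to 2217 CPM in the PGK libraries, with no overlap. The transcription factors among them split in direction.

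CEBPG (ENSG00000153879, chromosome 19), a partner of ATF4 on its target genes, had 74.7, 72.5 and 76.6 CPM in CAG, against 42.0, 42.6 and 40.3 CPM in PGK. This was the largest log2 change of the 40 tested members, at 0.84 (SE 0.053; edgeR adjusted p = 1.72e-10). DDIT3 (ENSG00000175197, chromosome 12) encodes CHOP, a factor linked to cell death under lasting stress. It had 5.41, 5.42 and 4.91 CPM in CAG, against 7.08, 7.15 and 7.05 CPM in PGK. DDIT3 thus lay lower in every CAG library while ATF4 lay higher in each. Its log2 change was -0.44 (SE 0.105; edgeR adjusted p = 0.00147). Exons of DDIT3 overlap those of MARS and MBD6 on the other strand, and no source used here says whether reads were counted by strand, so its level is uncertain.

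ATF3, a stress-induced repressor and activator, had 20.5, 22.3 and 20.1 CPM in CAG, against 22.0, 24.2 and 20.1 CPM in PGK. The libraries overlapped, with a 95% interval of the log2 change of -0.24 to 0.09 and an edgeR adjusted p of 0.421. CEBPB, another transcription factor of the family, also overlapped, at 17.9 to 23.4 CPM in CAG and 19.0 to 23.1 CPM in PGK. NUPR1, a small stress-induced nuclear protein, was close to the detection limit. It had 0.710, 0.508 and 0.420 CPM in CAG, from 38 counts in all, and 0.0932, 0.0449 and 0.219 CPM in PGK, from 8 counts in all. A count of 3 in a library is 0.126 to 0.133 CPM in CAG and 0.131 to 0.140 CPM in PGK. With no low-count filter, its log2 change was 2.12 (SE 0.54; edgeR adjusted p = 6.9e-04).

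TRIB3, PPP1R15A, SESN2 and DDIT4 were higher in CAG. TRIB3, a pseudokinase that restrains ATF4 and AKT, had 19.1, 19.999 and 20.1 CPM in CAG, against 14.4, 12.9 and 15.03 CPM in PGK. PPP1R15A, also known as GADD34, which guides a phosphatase to eIF2 and so ends the response, had 29.005, 24.5 and 26.2 CPM in CAG, against 20.1, 20.6 and 18.5 CPM in PGK. SESN2, an inhibitor of the growth kinase mTORC1, had 83.1, 78.4 and 81.3 CPM in CAG, against 61.1, 53.0 and 52.8 CPM in PGK. In all 3 genes every CAG library exceeded every PGK library. The log2 changes were 0.48 for TRIB3, 0.43 for PPP1R15A and 0.54 for SESN2, with edgeR adjusted p of 2.25e-05, 7.77e-05 and 2.93e-07 in that order. DDIT4, also known as REDD1 and likewise an inhibitor of mTORC1, rose by 0.41 (SE 0.057; edgeR adjusted p = 5.07e-06).

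Among the members of amino acid supply, ASNS had a larger log2 change than any of the 5 serine and one-carbon enzymes, of which 4 were higher and 1 lower. ASNS (ENSG00000070669, chromosome 7), which makes asparagine, had 152, 147 and 146 CPM in CAG, against 87.9, 93.8 and 94.0 CPM in PGK. The gap between the lines was many times the spread within them, and the log2 change was 0.69 (SE 0.049; edgeR adjusted p = 9.14e-10). ASNS has 4 annotated pseudogene copies, and so has PSAT1, while PSPH has 1. Exons of ASNS also overlap AC079781.5 on the same strand, so its level is uncertain. The enzymes of serine and one-carbon metabolism moved less, and not all one way. PHGDH, which starts serine synthesis, had 686, 664 and 679 CPM in CAG, against 606, 580 and 617 CPM in PGK. PSAT1, the next enzyme, had 222, 215 and 217 CPM in CAG, against 186, 192 and 186 CPM in PGK. PSPH, the last enzyme, had 33.2, 30.4 and 31.4 CPM in CAG, against 24.8, 25.4 and 26.7 CPM in PGK. All 3 steps of the pathway were therefore higher in each CAG library than in any PGK library, by 0.17, 0.22 and 0.31 on the log2 scale in pathway order.

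The mitochondrial one-carbon enzymes went in opposite directions. MTHFD2, which oxidises the folate-bound carbon unit, had 214, 210 and 205 CPM in CAG, against 181, 185 and 180 CPM in PGK. SHMT2, which takes that unit from serine, had 289, 277 and 281 CPM in CAG, against 328, 301 and 313 CPM in PGK. MTHFD2 rose by 0.20 (SE 0.044) and SHMT2 changed by -0.15 (SE 0.047), with edgeR adjusted p of 6.25e-04 and 0.00833. MTHFD2 has 7 annotated pseudogene copies, and SHMT2 exons overlap those of NDUFA4L2 on the other strand.

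Both subunits of a large neutral amino acid transporter were higher, SLC7A5 by little. SLC3A2, the heavy chain, rose by 0.35 (SE 0.049; edgeR adjusted p = 5.32e-06). SLC7A5, the light chain, had 336, 312 and 343 CPM in CAG, against 305, 306 and 300.4 CPM in PGK. Its CAG libraries lay just above the PGK libraries, at a log2 change of 0.12 (SE 0.047; edgeR adjusted p = 0.0307). The SLC7A5 call was lost without CAG replicate 1, CAG replicate 3 or PGK replicate 3, with adjusted p of 0.117, 0.168 and 0.0937, and with DESeq2, with an adjusted p of 0.0515. STC2, a secreted glycoprotein, rose by 0.30 (SE 0.056; edgeR adjusted p = 1.34e-04). VLDLR, a lipoprotein receptor, had 7.495, 6.74 and 8.06 CPM in CAG and 6.38, 8.18 and 7.14 CPM in PGK, which overlapped. Its 95% interval of the log2 change was -0.20 to 0.27.

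ATF4 binds with C/EBP partners at a composite element known as CARE. Its core letters, TGATGNAA, were searched on both strands in RefSeq promoter windows (GRCh38.p14, 250 bases before to 50 after a start), which were matched for 38 of the 41 genes and 16 of the 19 ATF4 targets. They were found for 4 of those 16 targets, ASNS, CEBPG, SLC3A2 and ATF3, against 4.46% of 27305 genes with a window, and for 1 of 16 ER genes, HERPUD1. The matches of the targets with the largest changes are shown, read along the gene, with the core in capitals.
CEBPG, chr19:33374061-33374088, plus strand: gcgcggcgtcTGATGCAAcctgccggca
ASNS, chr7:97872459-97872486, minus strand: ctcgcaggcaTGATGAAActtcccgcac
The match of ASNS began 68 bases before the start and that of CEBPG 42 bases before a start. Of the 4 targets with the core, 3 were higher in CAG and ATF3 did not pass. Of the 12 targets with a window and no match, 9 were higher, DDIT3 was lower and 2 did not pass. Both counts are to be read against 31.6% called higher and 30.4% called lower among all tested genes. A match describes letters in the window and not a bound site. The targets were listed as genes that ATF4 is known to activate, so the presence of its element is no independent result.

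ER chaperones and ERAD genes were called in both directions. Of 16 members, all tested, 9 were higher and 4 lower in CAG, against 31.6% and 30.4% of all tested genes, with a median log2 change of 0.17 and a range of -0.52 to 0.76. Their summed level was 5718 to 5988 CPM in the CAG libraries and 5568 to 5898 CPM in the PGK libraries, which overlapped. The lectin chaperones CALR and CANX, high in both lines, were among the genes that were lower.

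HSPA5 (ENSG00000044574, chromosome 9), which encodes BiP, the main ER chaperone and a sentinel of the unfolded protein response, was slightly higher. It had 865, 811 and 794 CPM in CAG, against 726, 768 and 729 CPM in PGK. The lowest CAG library lay just above the highest PGK library, and CAG replicate 1 was the highest of all. The log2 change was 0.15 (SE 0.048; edgeR adjusted p = 0.0102), and without CAG replicate 1 it was 0.11 with an adjusted p of 0.0808. HSP90B1, the ER member of the HSP90 family, was at 910, 892 and 887 CPM in CAG, against 755, 799.8 and 749 CPM in PGK. It rose by 0.22 (SE 0.046; edgeR adjusted p = 3.18e-04).

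The larger rises came from MANF and DNAJC3. MANF (ENSG00000145050, chromosome 3), a secreted ER stress protein that binds BiP, had 133, 117 and 117 CPM in CAG, against 79.7, 69.0 and 67.4 CPM in PGK. DNAJC3 (ENSG00000102580, chromosome 13), a co-chaperone that inhibits eIF2 kinases, had 65.7, 70.2 and 66.9 CPM in CAG, against 39.3, 42.6 and 43.0 CPM in PGK. Neither gene had any overlap between the lines. MANF rose by 0.76 (SE 0.068) and DNAJC3 by 0.70 (SE 0.056), with edgeR adjusted p of 4.2e-08 and 3.86e-09. PDIA4, a disulfide isomerase, had 440, 409 and 418 CPM in CAG, against 330, 343 and 324 CPM in PGK. HYOU1, a large chaperone that releases nucleotide from BiP, had 343, 348 and 343 CPM in CAG, against 276, 285 and 275 CPM in PGK. PDIA4 rose by 0.35 (SE 0.047), HYOU1 by 0.31 (SE 0.044) and the isomerase PDIA6 by 0.28 (SE 0.044), each with no overlap between lines.

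The 4 genes that were lower were DNAJB11, SDF2L1 and the lectin chaperones CALR and CANX. DNAJB11 (ENSG00000090520, chromosome 3), a co-chaperone of BiP, had 90.6, 84.9 and 82.9 CPM in CAG, against 123, 128 and 119 CPM in PGK. SDF2L1 (ENSG00000128228, chromosome 22), its partner in a complex, had 87.7, 84.9 and 96.5 CPM in CAG, against 129, 102 and 125 CPM in PGK. Both partners lay lower in every CAG library, though PGK replicate 2 came near the CAG libraries for SDF2L1. DNAJB11 fell by 0.52 (SE 0.052) and SDF2L1 fell by 0.40 (SE 0.082), with edgeR adjusted p of 8.85e-08 and 8.3e-04. CALR, the calcium-binding lectin calreticulin, had 1134, 999 and 1027 CPM in CAG, against 1291, 1214 and 1148 CPM in PGK. CANX, its membrane-bound relative calnexin, had 1216, 1223 and 1184 CPM in CAG, against 1413, 1541 and 1388 CPM in PGK. CALR fell by 0.21 (SE 0.055) and CANX fell by 0.26 (SE 0.049), with edgeR adjusted p of 0.00304 and 1.4e-04. Exons of DNAJB11 and CANX overlap a gene on the other strand, TBCCD1 and CBY3 in that order, and those of CALR overlap AC092069.1 there. The same holds for genes that were higher: HSP90B1 exons overlap C12orf73 and TTC41P, PDIA6 exons ATP6V1C2, HYOU1 exons AP003392.3 and EDEM1 exons AC026202.3. The levels of these 7 genes are uncertain.

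The ERAD genes and the remaining chaperones moved little. HERPUD1, an ER membrane protein of ERAD, rose by 0.18 (SE 0.055) and EDEM1, which hands over misfolded glycoproteins, by 0.26 (SE 0.053). SEL1L, the scaffold of an ERAD ubiquitin ligase, had 67.3, 69.5 and 69.3 CPM in CAG and 63.8, 70.1 and 63.1 CPM in PGK. Its lines overlapped, as did those of the co-chaperone DNAJB9 and of CRELD2, a secreted ER stress protein. The 95% interval of the log2 change was -0.05 to 0.18 for SEL1L, -0.12 to 0.23 for DNAJB9 and -0.11 to 0.17 for CRELD2.

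Levels of the ER genes per kilobase covered a wide range. Per kilobase, CALR was the highest of all 41 genes in both lines, at 553 ± 37.5 CPM per kb in CAG and 640 ± 37.6 in PGK (SD, n = 3 each). In CPM, CANX was above CALR in both lines, at means of 1208 and 1053 in CAG and 1447 and 1218 in PGK. The top rank of CALR therefore depends on the transcript lengths used. CANX averaged 284 ± 4.90 CPM per kb in CAG and 340 ± 19.3 in PGK, and HSP90B1 averaged 314 ± 4.25 in CAG and 269 ± 9.73 in PGK. Per kilobase, HSP90B1 was above CANX in CAG and CANX above HSP90B1 in PGK. In CPM, CANX was above HSP90B1 in both lines, at means of 1208 and 897 in CAG and 1447 and 768 in PGK. The order in CAG therefore depends on the transcript lengths used. HSPA5 followed in both lines, at 211 ± 9.49 CPM per kb in CAG and 190 ± 5.96 in PGK. DNAJB9 was the lowest of the group, at 4.41 ± 0.210 CPM per kb in CAG and 4.25 ± 0.172 in PGK.

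**Figure D3:**
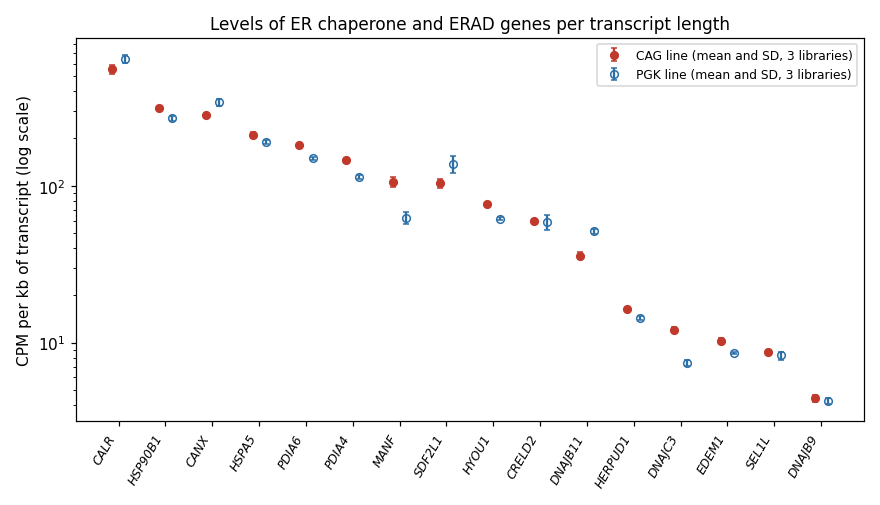
Mean CPM per kb of transcript, on a log axis, for the 16 ER chaperone and ERAD genes, with SD bars over 3 libraries (filled, CAG; open, PGK). MANF and DNAJC3 stand apart upward in CAG, while CALR, CANX, SDF2L1 and DNAJB11 are lower there.

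ER stress genes share short promoter elements that ATF6 and XBP1 are known to bind. The ER stress element ERSE was searched as CCAAT, any 9 bases and CCACG, and its second form ERSE-II as ATTGG, any 1 base and CCACG, each on both strands of the same windows. ERSE was found for 6 of the 16 ER genes and for XBP1, and for none of the 16 ATF4 targets with a window. Of all 27305 genes with a window, 0.0916% held it. ERSE-II was found for another 3 ER genes, HERPUD1, HYOU1 and SDF2L1, against 0.0696% of all genes. These elements were described on genes of this kind, so their presence is no independent result. Matches are shown for genes on either side of the comparison, read along the gene, with the matched stretch in capitals and in either orientation.
HSPA5, chr9:125241386-125241414, minus strand: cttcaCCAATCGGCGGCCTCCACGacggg
HSP90B1, chr12:103930211-103930239, plus strand: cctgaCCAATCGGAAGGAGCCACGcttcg
PDIA6, chr2:10812848-10812876, minus strand: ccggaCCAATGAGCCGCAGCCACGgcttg
XBP1, chr22:28800598-28800626, minus strand: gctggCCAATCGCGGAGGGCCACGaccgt
CALR, chr19:12938379-12938407, plus strand: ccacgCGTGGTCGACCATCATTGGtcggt
CANX, chr5:179698773-179698801, plus strand: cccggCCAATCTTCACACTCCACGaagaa
HYOU1, chr11:119057265-119057293, minus strand: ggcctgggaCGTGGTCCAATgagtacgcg
SDF2L1, chr22:21642105-21642133, plus strand: cctcggaagCGTGGACCAATcaaaaccct
The first 4 belong to genes that were higher in CAG, CALR and CANX to genes that were lower, HYOU1 to a gene that was higher and SDF2L1 to one that was lower. Of the 9 ER genes with either element, 5 were higher, 3 lower and CRELD2 did not pass. Of the 7 without, 4 were higher, DNAJB11 was lower and 2 did not pass. The shares among all tested genes were 31.6% higher and 30.4% lower. MANF and DNAJC3 held no match to either element in their windows. The UPRE letters TGACGTGG were found for 1 member, HYOU1, where they share 5 bases with an ERSE-II match, against 0.927% of all genes.

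Neighbouring genes on the chromosome moved with several of these genes. For each member the median log2 change of the 50 nearest tested genes was taken. It lay within 0.25 of 0, a limit set after the values were seen, for 29 members. Of these, 16 were higher, 3 lower and 10 not called, with a median log2 change of 0.15. Among all tested genes 31.6% were called higher and 30.4% lower. The share among all genes with such neighbours was not taken. ATF4 and ASNS, with neighbour medians of -0.0043 and 0.02, changed by 0.50 and 0.69. DDIT3 and SDF2L1, with neighbour medians of -0.05 and 0.01, changed by -0.44 and -0.40. These 4 genes thus differed between lines beside a neighbour median near 0. Such a median can also arise where rises and falls balance, and how far the single neighbours differed was not tested.

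The neighbour median lay beyond 0.25 for the other 11 members, among them 7 that were higher and 3 that were lower in the direction of their neighbours. Over all tested genes, 31.6% were called higher and 30.4% lower. The share going with their neighbours among all genes beyond 0.25 was not taken, so these counts say nothing particular about stress genes. CEBPG on chromosome 19 changed by 0.84 beside a neighbour median of 0.55, and MANF on chromosome 3 by 0.76 beside 0.34. DNAJC3 on chromosome 13 changed by 0.70 beside a neighbour median of 0.48. DNAJB11 changed by -0.52 beside -0.68, CALR by -0.21 beside -0.37 and CANX by -0.26 beside -0.34, so each of these 3 fell less than its neighbours. EDEM1 changed by 0.26 beside a neighbour median of 0.41. PPP1R15A, SESN2 and PDIA4 changed by 0.43, 0.54 and 0.35 beside neighbour medians of 0.38, 0.27 and 0.28. STC2 alone of the 11 went against its neighbours, at 0.30 beside -0.35. The part of the neighbourhood in these changes was not tested.

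**Figure D4:**
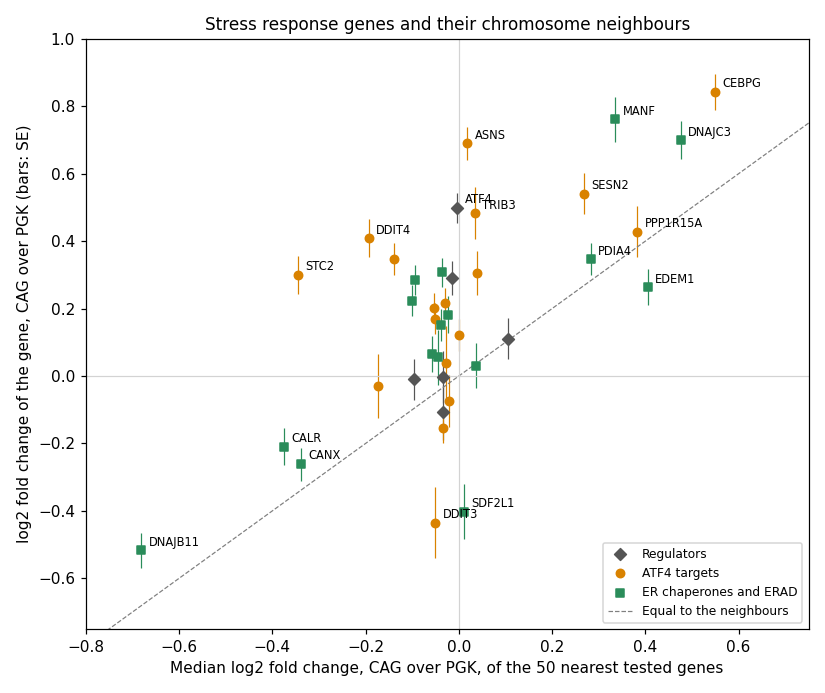
Log2 fold change of each tested stress gene (vertical axis, with SE bars) against the median log2 fold change of its 50 nearest tested genes (horizontal axis), marked by group, with a dashed line where both are equal. ATF4 at 0.50 and ASNS at 0.69 stand above neighbour medians near 0, while CALR, CANX and DNAJB11 lie low beside low neighbour medians.

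Other genes of the pathways went both ways, and the counts of each list are to be read against the 31.6% called higher and 30.4% called lower among all tested genes. Of 18 genes of the eIF2 machinery and other regulators of the integrated stress response, 9 were higher and 6 lower, with a median log2 change of 0.11. JDP2, a repressor of the AP-1 family, rose by 0.82 (SE 0.142), and the transcription factor ATF5 by 0.72 (SE 0.071) beside a neighbour median of 0.45. EIF2B5, the catalytic subunit of the exchange factor for eIF2, fell by 0.71 (SE 0.052), and DELE1, which relays mitochondrial stress, fell by 0.32 (SE 0.058). Both lay beside neighbours that were lower, with medians of -0.66 and -0.33.

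A further list of 18 ATF4 targets ranged from -1.09 to 3.16 in log2 change. Of 17 tested, 8 were higher and 4 lower, with a median log2 change of -0.04 and a mean of 0.39, which differ in sign. The summed level of the list was 1376 to 1395 CPM in the CAG libraries and 1375 to 1390 CPM in the PGK libraries. Unlike the sum of the ATF4 target members, it overlapped between the lines. The cystine transporter SLC7A11 had 57.1, 61.4 and 59.9 CPM in CAG, against 6.52, 6.79 and 6.66 CPM in PGK, a fold of 8.93. ALDH1L2, a mitochondrial folate enzyme, had 25.1, 27.8 and 29.4 CPM in CAG, against 7.31, 8.76 and 7.32 CPM in PGK, a fold of 3.51. Both changes were far larger than any among the 40 tested members. ALDH1L2 works in the same mitochondrial pathway as MTHFD2 and SHMT2, which differed by 1.15-fold and 0.899-fold. GDF15, a secreted stress hormone, was low, at 0.399, 0.297 and 0.252 CPM in CAG and 0.885, 0.539 and 0.613 CPM in PGK. Its log2 change was -1.09 (SE 0.359; edgeR adjusted p = 0.0132), which was lost without PGK replicate 1 (0.0757), without CAG replicate 3 (0.0577) and with DESeq2 (0.0592). CEBPD, a transcription factor of the C/EBP family, changed by -1.03 (SE 0.266; edgeR adjusted p = 0.00537), with an adjusted p of 0.0985 under a replicate block.

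The other lists of the unfolded protein response were mixed. Of 8 other transducers, MBTPS2, the protease that makes the second cut in ATF6, rose by 0.34 (SE 0.065), and WFS1, an ER membrane protein, by 0.28 (SE 0.054), less than its neighbour median of 0.52. The other 6 did not pass. Of 30 other ER folding and ERAD genes 6 were higher and 10 lower, with a median of -0.0073, against 31.6% and 30.4% of all tested genes. DNAJC1 rose by 0.74 (SE 0.056) and the isomerase TXNDC5 by 0.52 (SE 0.049), beside neighbour medians of 0.52 and 0.29. The ERAD mannosidase-like genes EDEM3 and EDEM2 fell by 0.65 (SE 0.057) and 0.52 (SE 0.066), beside neighbour medians of -0.37 and -0.07. EDEM1, a member, was by contrast higher, by less than its neighbour median of 0.41. Whether the chaperone members differ from these lists was not tested.

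Markers of cell identity were checked beside these results. Of the kidney progenitor markers, SALL1 was at a mean of 45.2 CPM in CAG and 54.4 CPM in PGK, and PAX2 at 1.27 CPM in CAG and 1.55 CPM in PGK. Immune markers summed to 1.14 to 2.04 CPM in CAG and 0.964 to 1.75 CPM in PGK, with CD3E at 0 counts. Fibroblast markers summed to 29.8 to 31.2 CPM in CAG and 20.3 to 22.2 CPM in PGK, and neuronal markers to 41.0 to 43.5 CPM in CAG and 70.3 to 77.0 CPM in PGK, so these 2 lists moved with the lines. Of the 6 fibroblast markers 3 were tested and COL1A2 was at 0 counts; of the 6 neuronal markers 3 were tested, among them NEFM at a mean of 0.0853 CPM in CAG and 18.8 CPM in PGK. Their part in the stress gene results was not tested. Within a line the median coefficient of variation of the tested stress genes was 3.29% in CAG and 4.24% in PGK.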

How the data were processed

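RNA-seq of directional polyA-selected libraries from 6 samples was used. The authors deposited raw read counts per gene. The build hg19 and the tools featureCounts 2.0.3, HISAT2 2.2.1, Bowtie2 2.5.1 and cutadapt 4.6 are named per the submitters' processing notes, and tool roles, annotation and strand setting were not given in the sources used. Reads of overlapping genes and near-identical copies are therefore uncertain. Exons of 17 of the 41 members overlap a gene on the other strand. Those of 4, DDIT3, ASNS, HSP90B1 and DNAJB11, overlap a gene on the same strand. Annotated pseudogene copies exist for 7 members, ATF4, XBP1, ASNS, PSAT1, PSPH, MTHFD2 and SLC7A5. Rows were matched to GENCODE 29 symbols by Ensembl identifier (19346 of 20169 rows); lengths are those of APPRIS principal transcripts.

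Genes were kept by filterByExpr, scaled by TMM and tested with edgeR 4.0.16 in R 4.3.3 (robust quasi-likelihood, two-sided, no replicate block). An SE is the log2 change over the root of F. On simulated counts for 13103 genes in this comparison, 68% of genes changed 1.25-fold, 86% changed 1.5-fold and 100% changed 2-fold or 4-fold were recovered. The simulation changed 50 genes at each fold, and 16 unchanged genes were also called. In the data 62.0% of tested genes were called, so recovery there may differ. Alternatives were no or a stricter filter, RLE or library-size scaling, DESeq2 1.42.0, limma-voom (limma 3.58.1), glmTreat at a fold of 1.5, a fit with a replicate block, each library left out and subtraction of the neighbour median. The members and lists were chosen with earlier results of these data known. Named genes were all members and, of each other list, up to 2 called genes with the largest change in each direction; cell type markers were named outside this rule, after their values were seen. The 95% intervals come from the fit; the floor of 3 counts covers counting error only. The summed level of the kidney progenitor markers is not reported here.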

Additional observations from a re-analysis of the deposited data

How the results depend on the processing

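Counts of 24 members higher and 6 lower in CAG moved little over most settings. They were 22 to 26 higher and 6 to 7 lower when any 1 library was left out, 23 and 6 with DESeq2, and 24 and 6 with limma-voom, RLE, library-size scaling and the stricter filter. With a replicate block 25 were higher and 6 lower, the ATF4 target counts were 13 and 2, and the ER counts 9 and 4; ATF6 was the added call (edgeR adjusted p = 0.0437). Deviations of same-numbered libraries correlated at 0.108, 0.103 and 0.013, not all over 0.1, so the numbers were not taken as pairs, though each library correlated best with its own number. Tested against a fold of 1.5 with edgeR's glmTreat, 2 members were higher and 0 lower (7.28% and 4.26% of all genes), with 1 ATF4 target and 1 ER gene higher and 0 lower in each, and 0 members lower at an unadjusted p under 0.05. The 2 were CEBPG (edgeR adjusted p = 1.83e-04) and MANF (0.0203), while ASNS (0.0505) and DNAJC3 (0.0586) did not pass. After subtraction of the neighbour median, 7 called genes that are named turned direction, to 0.16 for DNAJB11, -0.14 for EDEM1, 0.17 for CALR, 0.077 for CANX, 0.0088 for DELE1, -0.24 for WFS1 and -0.0049 for HSPH1; EIF2AK4, ERN1, CEBPB and CRELD2, not called, changed sign to 0.086, 0.031, 0.14 and -0.0054. For HSPA1B the call ended with no filter and without CAG replicate 2 or PGK replicate 2 (edgeR adjusted p of 0.0551, 0.0612 and 0.0643).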

Other observations

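Cytosolic and mitochondrial heat shock genes, which answer protein damage outside the ER, were more often lower than higher. Of 14 tested genes 4 were higher and 8 lower in CAG, with a median log2 change of -0.16, against 31.6% and 30.4% of all tested genes. HSPA1A, an inducible HSP70 gene, had 33.0, 27.96 and 23.5 CPM in CAG, against 47.0, 47.6 and 50.5 CPM in PGK, a log2 change of -0.78 (SE 0.093). HSPA1B, its near-identical copy, had 637, 581 and 540 CPM in CAG, against 994, 780 and 714 CPM in PGK, a log2 change of -0.50 (SE 0.141). Reads of this pair can be assigned to either gene, so both levels are uncertain. HSPB1, a small heat shock protein, rose by 0.68 (SE 0.081), and HSPH1, a nucleotide exchange factor for HSP70, by 0.51 (SE 0.048), equal to its neighbour median of 0.51. Whether the heat shock and ER lists differ was not tested.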
